A study of Drosophila melanogaster with 2 samples.

Results

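The actin gene family of Drosophila melanogaster comprises 6 genes, Act5C, Act42A, Act57B, Act79B, Act87E and Act88F, among 18277 annotated genes outside transposable elements. They were chosen by symbol, and every pooled binding call with its summit in a gene or within 2000 bp of it was assigned to that gene, which gave 18 of 30000 calls. Binding of the GFP-tagged chromatin protein ADD1 was measured by chromatin immunoprecipitation and sequencing (ChIP-seq) with an antibody against GFP, although the antibody entry of the labels reads CG8290, another name of ADD1. The line, ADD1-MiMIC-GFP, has an eGFP exon inserted in an intron of ADD1, and the chromatin came from whole embryos aged 0 to 16 h, with males and females pooled. The 2 libraries, biological replicates numbered 1 and 3, make up a single group; neither a second genotype nor control libraries were analysed here. Because whole embryos mix all tissues, binding in few cells and weak binding in many cannot be told apart.

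Actin is the protein of the thin filaments of muscle and of the cytoskeleton. In the fly each actin isoform is encoded by its own gene. Act5C and Act42A code for cytoplasmic actins, which are made in most cells and build the cortex, the cytokinetic ring and cellular protrusions. The other 4 genes code for muscle actins: Act57B and Act87E are known mainly from the embryonic and larval body wall muscles, Act79B from adult thoracic and leg muscles, and Act88F from the indirect flight muscles, which form in the pupa. ADD1 is a protein with an ADD domain related to that of ATRX and is known from heterochromatin.

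ADD1-GFP calls were found at 4 of the 6 actin genes: 7 at Act5C, 5 at Act42A, 3 at Act57B and 3 at Act87E. Act79B and Act88F had 0. Over all annotated genes 64.2% had a call within 2000 bp. Among the 4344 protein-coding genes whose spans fall in the range of the actin genes, 1780 to 4539 bp, the share was 69.8%. The authors' procedure for irreproducible discovery rate (IDR), which compares ranks between replicates, kept 4402 pooled calls, exactly those with the highest signal. Of the 18 actin calls 7 (38.9%) were kept, against 14.7% of all pooled calls. At least 1 kept peak lay at 3 of the 6 genes, Act5C, Act42A and Act87E. The background was 33.0% of all genes, 36.7% of protein-coding genes and 38.5% of the protein-coding genes of the same span range. Genes of a single family are not replicates of a condition, so these shares are set side by side without a test.

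**Figure D1:**
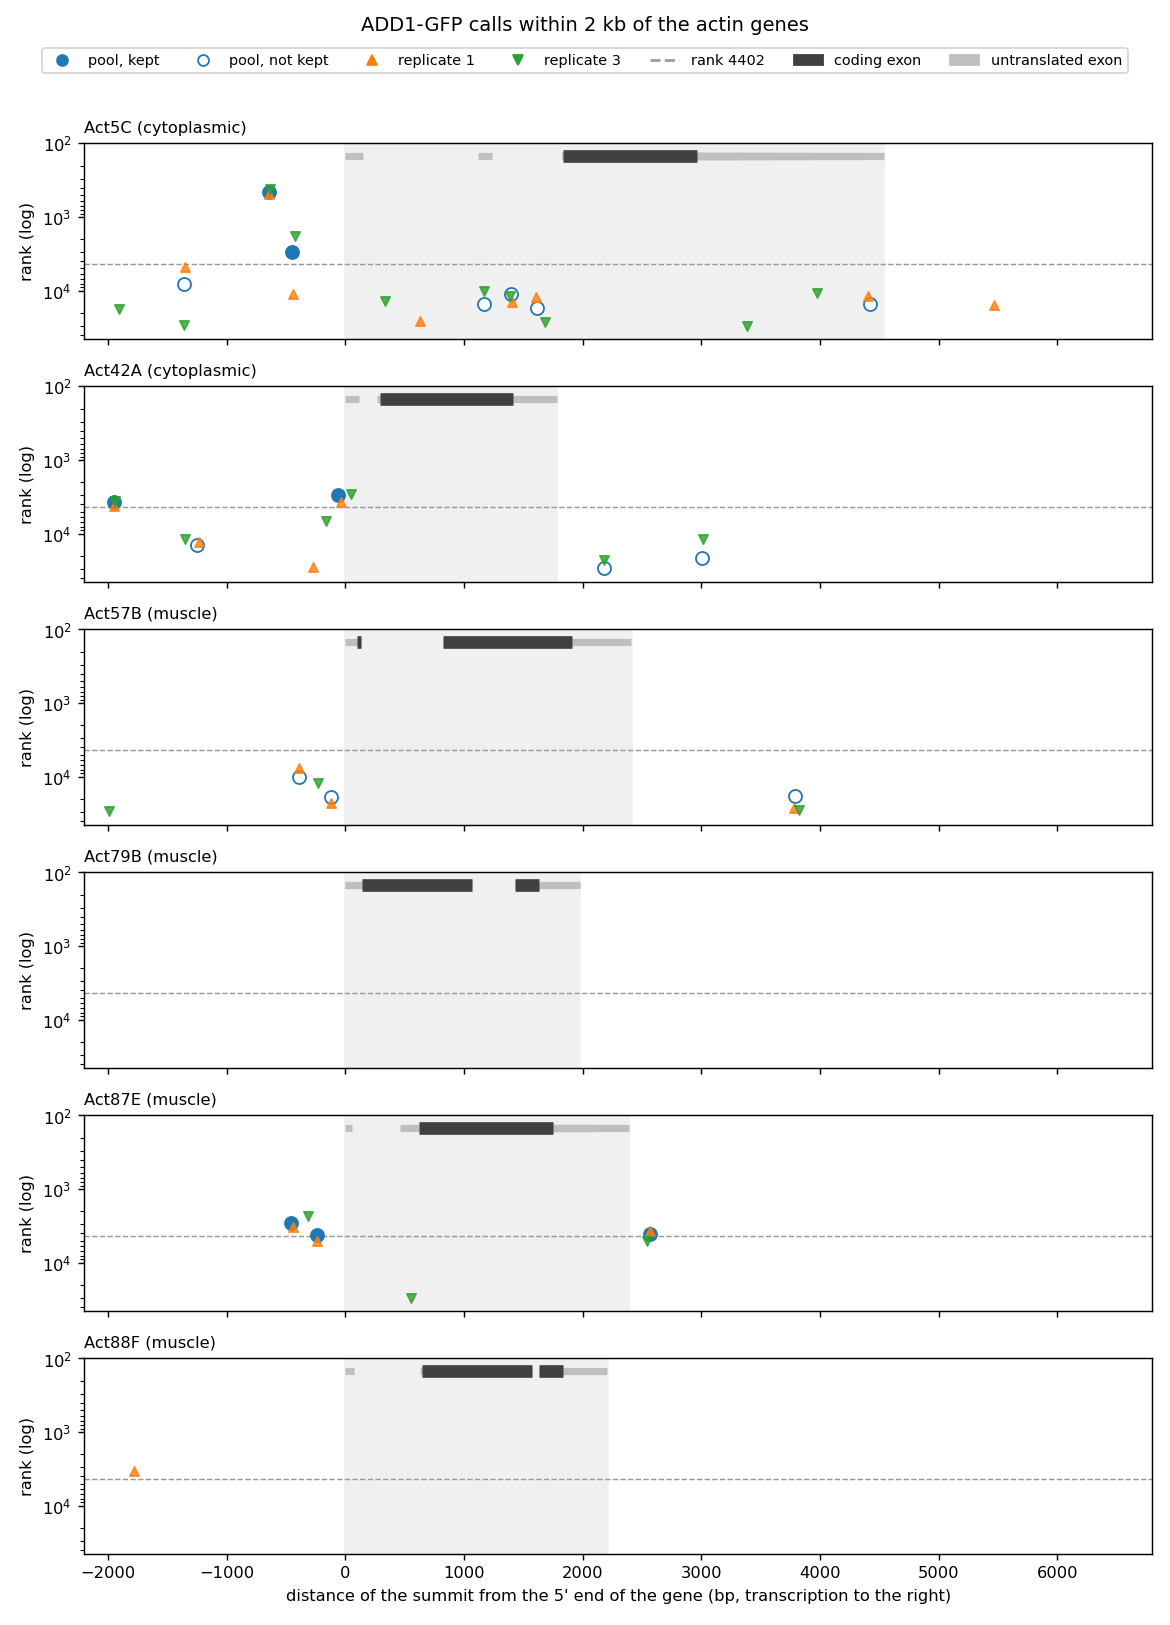
Pooled ADD1-GFP calls along each actin gene, as distance in bp from the gene's 5′ end (horizontal) against rank by signal (vertical, log scale, strongest at the top). Filled circles are kept peaks, open circles other pooled calls and triangles the calls of each replicate, with a dashed line at rank 4402. Kept peaks lie upstream of Act5C, Act42A and Act87E and downstream of Act87E. Act79B and Act88F have no pooled call, and the triangle at Act88F is a call of replicate 1 alone (rank 3384).

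Act5C (FBgn0000042) spans X from 5900861 to 5905399 on the plus strand and has 2 annotated starts. It carried the strongest actin call. That peak (X, 5900066 to 5900293) had its summit 646 bp before the 5′ end, with an authors' signal of 280.0 in the pool, 129 in replicate 1 and 159 in replicate 3. Its rank was 464 in the pool, 490 in replicate 1 and 422 in replicate 3, so it was among the strongest calls of both libraries. Only 901 of 18277 genes (4.93%) had a stronger call within 2000 bp. The peak was 228 bp wide, whereas 98.0% of pooled calls were 424 bp wide; among kept peaks 599 (13.6%) had another width.

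This peak lay between genes, in the gap between Act5C and lncRNA:CR45668, a divergently placed long non-coding RNA gene whose start was the nearest, 226 bp from the summit. A second kept peak overlapped it (X, 5900202 to 5900625), with its summit at −447 and a signal of 123. It ranked 2991 in the pool and 1824 in replicate 3 but 10960 in replicate 1. The replicates therefore placed it on different sides of rank 4402, the number of kept peaks. The lncRNA start was again closer, at 425 bp. The sequences around both summits are shown because they hold the strongest actin binding, followed by the first Act5C start. Capitals mark GAGAG or its reverse complement in the first, TATAAA in the second and both motifs in the third, where TATAAA and its reverse complement overlap.
Act5C summit at −646, chrX:5900115-5900315, plus strand: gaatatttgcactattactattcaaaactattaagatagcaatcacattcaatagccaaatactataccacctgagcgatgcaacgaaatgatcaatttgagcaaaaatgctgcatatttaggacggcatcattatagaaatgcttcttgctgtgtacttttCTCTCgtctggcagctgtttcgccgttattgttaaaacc
Act5C summit at −447, chrX:5900314-5900514, plus strand: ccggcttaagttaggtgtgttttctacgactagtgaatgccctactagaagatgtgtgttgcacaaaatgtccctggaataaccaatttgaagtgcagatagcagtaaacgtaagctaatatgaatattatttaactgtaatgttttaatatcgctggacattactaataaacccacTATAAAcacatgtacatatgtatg
Act5C first start, chrX:5900791-5900880, plus strand: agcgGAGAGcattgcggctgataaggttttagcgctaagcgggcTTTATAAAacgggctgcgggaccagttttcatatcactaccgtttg

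The other 5 Act5C calls were weaker and not kept. A call at −1359 lay in a non-coding exon of lncRNA:CR45668 and had a signal of 62.7. It ranked 8128 in the pool, 4729 in replicate 1 and 29336 in replicate 3, the widest spread between replicates among the actin calls matched in both. Another lay 46 bp from the second Act5C start, in the 5′ untranslated region, at a signal of 41.7 and rank 15062. It had no match in replicate 1. Intronic summits at +1395 and +1615 ranked 11016 and 17310. The last, at +4421 in the 3′ untranslated region, lay 464 bp from the start of CG4020, ranked 15219 and had no match in replicate 3.

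Act42A (FBgn0000043) spans 2R from 6013910 to 6015689 on the minus strand. Its strongest peak (2R, 6015539 to 6015962) had its summit 62 bp before the start, with a signal of 124 in the pool, 52.5 in replicate 1 and 69.3 in replicate 3. It ranked 2945 in the pool and, by its strongest match, 3730 in replicate 1 and 2858 in replicate 3, above rank 4402 in every list. By largest overlap its match in replicate 3 had rank 6658, below that line. Of all genes 4601 (25.2%) had a stronger call. This was the single kept peak at a cytoplasmic actin gene whose nearest start was the actin gene's own. The second kept peak (2R, 6017424 to 6017847, signal 109) was at −1947, but 103 bp from the start of Pngl, which codes for a peptide N-glycanase-like enzyme. Its ranks were 3674, 4274 and 3631 in the pool, replicate 1 and replicate 3.

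The other 3 Act42A calls were weaker and not kept. The call at −1249 ranked 14227 in the pool and was matched in both replicates. The remaining pair, downstream at +2175 and +3007, ranked 29640 and 21447 and had matches in replicate 3 alone. The summit at +3007 lay in the 3′ untranslated region of Src42A, a Src-family tyrosine kinase gene.

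Among the muscle actin genes, Act57B (FBgn0000044; 2R, 20944021 to 20946431, plus strand) had calls but no kept peak. Its summits at −388 and −125 had signals of 53.9 and 35.8 and ranks of 10156 and 18899. Both matched the same replicate 3 call, at rank 12176, and separate replicate 1 calls, at ranks 7523 and 22767. The last call, at +3787, ranked 18309. A stronger call than the best one of Act57B was found at 8974 genes, or 49.1% of a total that includes genes with no call. Only 11732 genes had any call within 2000 bp, and their median best rank was 4172, stronger than that of Act57B.

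Act79B (FBgn0000045; 3L, 21985210 to 21987190, plus strand) had no call within 2000 bp in the pool or in either replicate. The nearest pooled call lay 23181 bp from the gene, and 1039 protein-coding genes (7.44%) were farther from theirs. Act88F (FBgn0000047; 3R, 15439969 to 15442177, plus strand) was 5270 bp from its nearest pooled call, with 3191 protein-coding genes (22.8%) farther away. Replicate 1 alone held a call at Act88F (3R, 15437979 to 15438394), at −1782, with a signal of 55.3 and rank 3384. Neither the pool nor replicate 3 had an overlapping call. Of the 4402 strongest calls of replicate 1, 36 (0.818%) had no overlap in the pool or replicate 3, so such calls were rare in that library. For replicate 3 the number was 25 (0.568%).

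Act87E (FBgn0000046; 3R, 13425983 to 13428375, plus strand, 2 starts) was the muscle actin gene with kept peaks, and all 3 of its calls were kept. The first (3R, 13425317 to 13425740) had its summit at −454, with a signal of 126 in the pool, 56.4 in replicate 1 and 77.3 in replicate 3. It ranked 2868 in the pool, 3283 in replicate 1 and 2320 in replicate 3. The overlapping second peak (13425528 to 13425951), at −243, had a signal of 99.1 and rank 4235, close to the last kept rank. The gene lncRNA:CR45591 overlaps the Act87E start on the minus strand (13425833 to 13426178), so both upstream peaks also lie within 2000 bp of it. The strongest match of the −243 peak in each replicate was the same call as for the first peak, so the replicates do not give it a separate rank. By largest overlap its match in replicate 1 had rank 5008. Another peak (13428335 to 13428758, signal 102) lay 172 bp past the 3′ end, between Act87E and the convergent gene yrt, which codes for the cell polarity protein Yurt. It ranked 4104 in the pool, 3663 in replicate 1 and 5101 in replicate 3. A stronger call was found at 4483 genes (24.5%), a share close to that of Act42A.

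The sequences around the upstream Act87E summits are shown because they are the kept peaks nearest to a muscle actin start. Capitals mark TCGATA, the core of the DNA replication-related element (DRE) that DREF binds, in the first and a match to the MEF2 site in the second. The starts of Act87E, Act88F and Act79B follow, so that the muscle start with kept peaks can be set beside those with no call. In them capitals mark TATAAA and GAGAG.
Act87E summit at −454, chr3R:13425429-13425629, plus strand: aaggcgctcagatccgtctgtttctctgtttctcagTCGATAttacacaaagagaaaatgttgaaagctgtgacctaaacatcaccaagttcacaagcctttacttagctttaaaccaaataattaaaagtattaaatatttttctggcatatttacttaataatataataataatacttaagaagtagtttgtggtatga
Act87E summit at −243, chr3R:13425640-13425840, plus strand: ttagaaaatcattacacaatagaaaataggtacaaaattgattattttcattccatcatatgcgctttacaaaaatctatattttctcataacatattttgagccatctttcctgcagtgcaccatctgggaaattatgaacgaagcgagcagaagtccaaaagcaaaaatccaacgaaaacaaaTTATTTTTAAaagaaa
Act87E first start, chr3R:13425913-13426002, plus strand: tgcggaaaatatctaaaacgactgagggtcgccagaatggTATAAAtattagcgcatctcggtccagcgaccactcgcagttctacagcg
Act88F start, chr3R:15439899-15439988, plus strand: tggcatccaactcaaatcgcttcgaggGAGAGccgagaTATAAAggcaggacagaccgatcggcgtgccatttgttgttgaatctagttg
Act79B start, chr3L:21985140-21985229, plus strand: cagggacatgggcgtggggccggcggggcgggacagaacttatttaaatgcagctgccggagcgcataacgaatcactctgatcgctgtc

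Set side by side with all calls within 2000 bp, the cytoplasmic genes had the denser calls. Their 12 calls in 14.3 kb of searched sequence came to 0.838 calls per kb, against 6 calls in 25.0 kb, or 0.240 per kb, for the muscle genes. Over the chromosome arms as a whole the density was 0.218 per kb. That figure takes in all sequence outside genes and their flanks, so it is no background for windows around genes. Kept peaks were found at 2 of 2 cytoplasmic and 1 of 4 muscle genes. By share of calls the order was the opposite. Of the cytoplasmic calls 4 (33.3%) were kept, and of the muscle calls 3 (50%), all at Act87E. The median rank was 12622 for cytoplasmic and 7196 for muscle calls, while the best rank was 464 and 2868. Overlapping calls were not independent: the 12 cytoplasmic calls formed 9 separate stretches and the 6 muscle calls 4. When each call was given only to the gene with the nearest start, the cytoplasmic genes had 6 calls and the muscle genes 5, so the gap in number nearly closed. Then 1 cytoplasmic kept peak remained, at Act42A, and the muscle genes kept 3, all at Act87E.

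Both replicates held most of the actin calls. Of the 18, 14 were matched in both, by at least 50% of the shorter call. The share of all pooled calls matched in this way is not given here, so the count has no background. Replicate 1 lacked 3 and replicate 3 lacked 1, and all of these were weak calls at Act5C or Act42A. The 7 kept peaks were all matched in both, and 5 of them ranked within the strongest 4402 of each replicate. The exceptions were the −447 peak of Act5C, weaker in replicate 1, and the downstream peak of Act87E, weaker in replicate 3. By the match of largest overlap 3 calls, in place of 5, ranked within the strongest 4402 of each replicate. Kept peaks were chosen by comparing ranks between replicates, so their matches give no separate support. The replicates share a control file, and the pool was made from the reads of both, so pooled and replicate ranks are not independent.

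**Figure D2:**
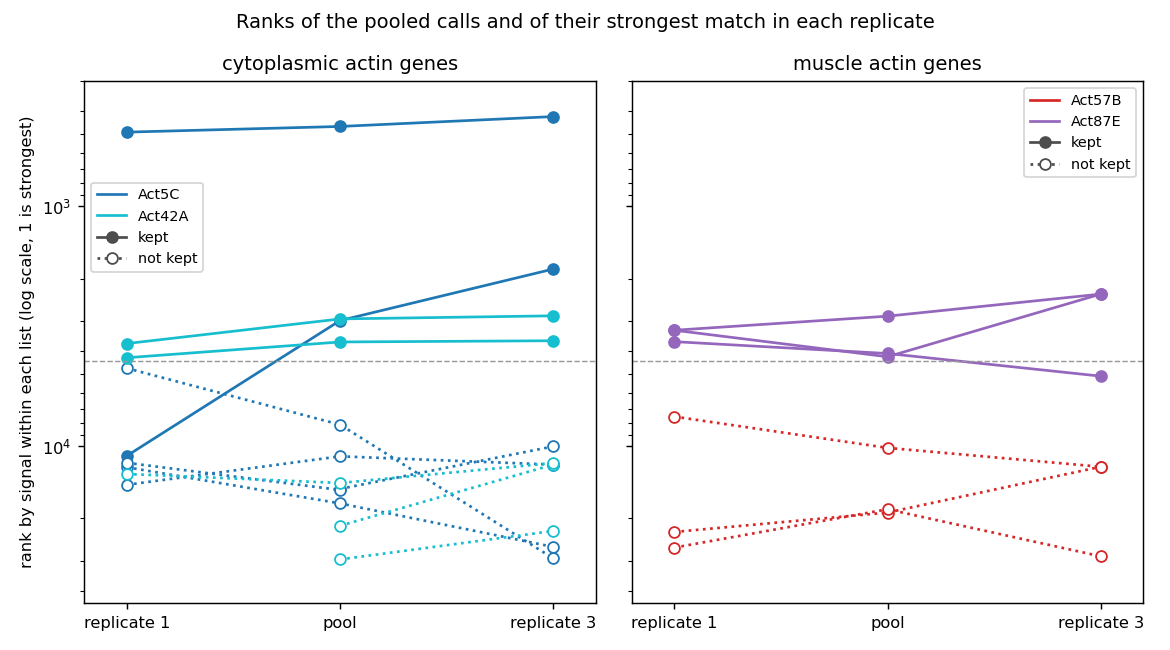
Rank by signal (vertical, log scale, 1 strongest) of each pooled actin call and of its strongest match in replicates 1 and 3, with filled symbols for kept peaks and a dashed line at rank 4402. The −646 peak of Act5C ranks 464, 490 and 422, and the −447 peak of Act5C crosses the line in replicate 1.

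By position, 9 of the 18 summits lay within 500 bp of a start of their own actin gene, and 4 of these were kept. Counted by gene, 3 of the 6 (Act5C, Act42A and Act87E) had a kept peak within 500 bp of a start, against 19.0% of all genes and 22.9% of protein-coding genes. Act5C counts here only through its −447 peak. That peak lay nearer to the lncRNA:CR45668 start, at 425 bp, and ranked 10960 in replicate 1. Summits in actin coding sequence numbered 0. The share of all pooled calls with summits in coding sequence is not given here, and a link with sequence shared between the genes was not tested. The coding sequences of the 6 genes are 1128 bp long, and reads from stretches that are identical between them cannot be placed uniquely. Act5C and Act42A had 86.2% identical coding bases and differed at 2 of 376 residues. Muscle pairs shared 88.0 to 91.8% of bases with 3 to 13 residue differences, and the 8 pairs across classes 84.0 to 91.0% with 12 to 18. The share of coding 32-bp words found once in the assembly ran from 82.7% in Act87E to 98.6% in Act42A, and was 84.8% in Act5C, 89.7% in Act57B, 89.9% in Act88F and 93.1% in Act79B. In the windows of 100 bp on either side of all 18 summits it was 100%, so no 32-bp word of these windows is found elsewhere in the assembly. The windows are narrower than most of the calls.

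**Figure D3:**
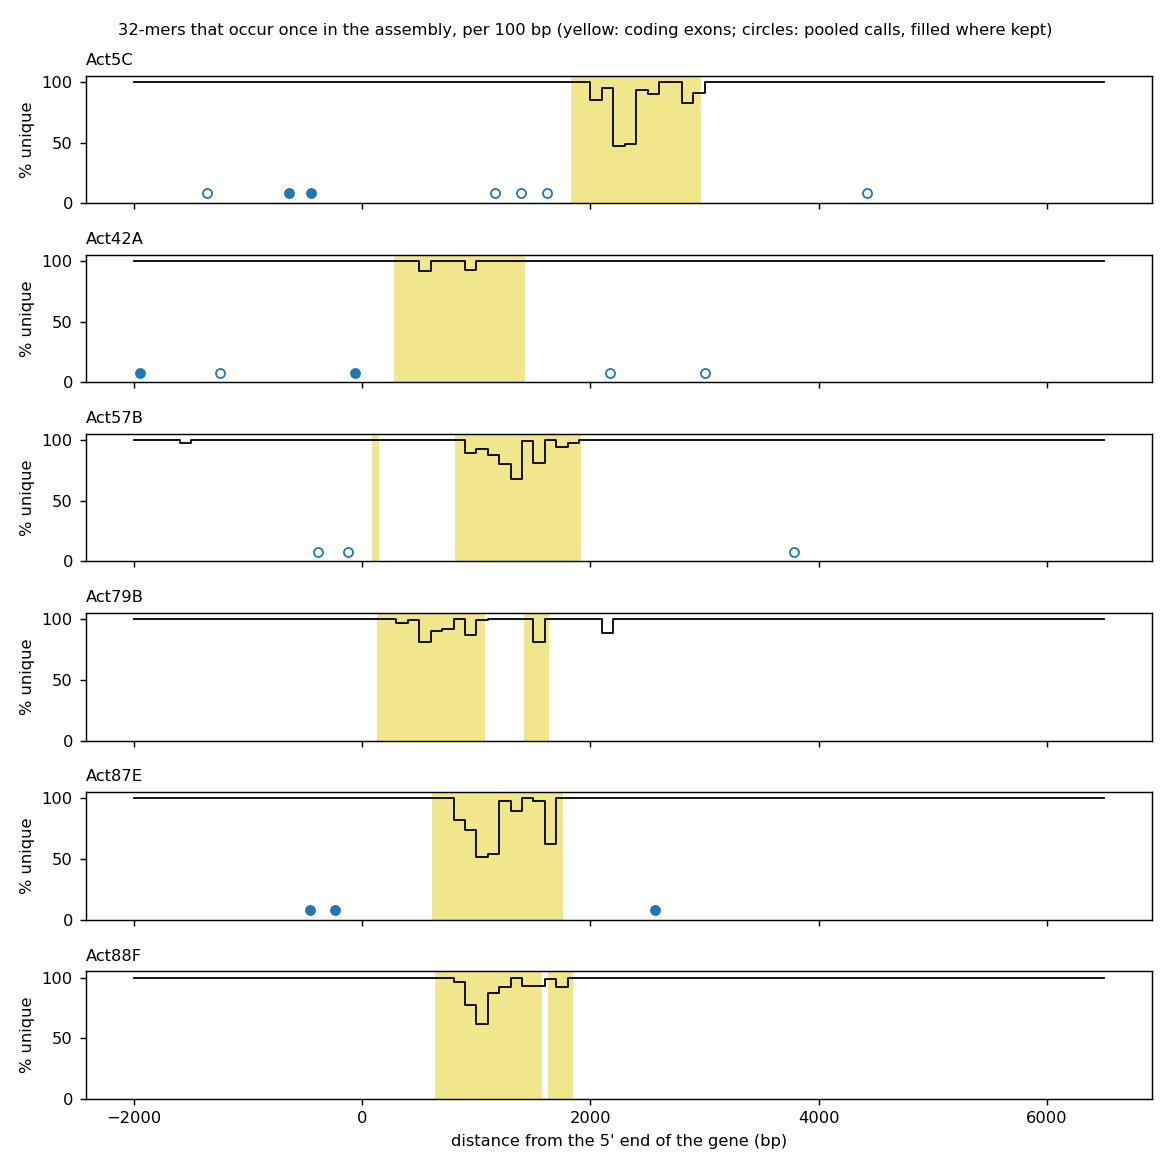
Share of 32-bp words found once in the assembly along each actin gene, against distance in bp from the 5′ end. The deepest dip shown, to 47.0% in a 100-bp bin of Act5C, falls in coding sequence, and a shallower dip lies just past the 3′ end of Act79B.

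A set of 10 motifs was looked for on both strands in the windows around the summits, and a match describes letters only. Of the 18 windows 7 are of kept peaks, so shares are given for kept peaks and for other pooled calls. TATAAA, the TATA box, occurred in 5 of the 18, against 32.5% of kept peaks, 26.8% of other calls and 26.2% of all annotated starts. GAGAG, bound by GAGA factor, occurred in 5, against 23.1% of kept peaks and 24.1% of other calls. The MEF2 site, of the muscle factor MEF2, was found in 3 windows, 1 each at Act42A, Act57B and Act87E, against 10.9% of kept peaks and 7.97% of other calls. TCGATA was in 3, against 20.8% and 11.0%. The longer DRE octamer TATCGATA, which contains it, was in 0, against 7.16% of kept peaks and 2.17% of other calls. The M1BP element GGTCACAC was in 1, the start peak of Act42A, where it began 18 bp before the start. It was held by 4.50% of kept peaks and 1.65% of other calls. E-boxes (CANNTG) occurred in 9 windows, in 60.0% of kept peaks and in 61.3% of other calls. GGTATTT and the CArG box were each in 1, against 7.04% and 1.04%, and the Zelda site CAGGTAG in 0, against 0.977%. With so few windows these counts are given without reading a difference into them. At the starts themselves TATAAA lay 24 to 32 bp upstream at 4 of 8 annotated actin starts, those of Act57B and Act88F and the first ones of Act5C and Act87E. The share of all annotated starts with TATAAA at that distance is not given here, since the 26.2% counts it anywhere within 100 bp.

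Genes whose products work with actin were looked up in the same way in 4 lists, with 33.0% of all genes and 36.7% of protein-coding genes as the background. A kept peak within 2000 bp was counted for a gene even where another gene's start was nearer, and this was the case for most of the strongest peaks. Of the actin-related protein genes 7 of 9 (77.8%) had a kept peak, but the strongest one was nearest to the gene's own start at 2 of the 7. The peaks at Arp5, a subunit of the Ino80 remodelling complex (rank 207), Arp3 of the branching Arp2/3 complex (467) and Bap55 of the Brahma complex (1239) had MED17, msk and CG6550 as the genes of the nearest start. That of Arp2 (1314) lay in an Arp2 intron, 811 bp from its own start.

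Of the genes for actin assembly and turnover 19 of 34 (55.9%) had a kept peak, nearest to their own start at 9. The strongest ranked 111 at Cortactin, which binds branched filaments, 440 at Hem of the WAVE complex, 566 at the monomer-binding twinfilin gene twf and 848 at Mical, whose product oxidises and disassembles filaments. Each of these 4 lay closer to a neighbour's start, namely those of AnxB9, IleRS, Polr2B and CG3909. Among factors that act on muscle and actin genes the count was 9 of 14 (64.3%), nearest to their own start at 3. The rank 50 peak counted for the mesodermal regulator Mef2 lay in the 5′ untranslated region of Pal1, 995 bp from the Mef2 start and 121 bp from that of Pdrg1. The best call within 500 bp of a Mef2 start ranked 2568. A peak at rank 103 lay in an intron of twi, another mesodermal regulator, 7944 bp from its start, and one at rank 1260 lay 1251 bp from the start of bin, of the visceral mesoderm. The rank 1360 peak counted for sd, which codes for the TEAD factor Scalloped, lay in the 5′ untranslated region of PGRP-LE.

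Of the sarcomere genes 9 of 25 (36.0%) had a kept peak, and these 9 rest on 8 different strongest peaks, nearest to their own start at 5. Zasp66 (rank 150) and Zasp52 (556) code for Z-disc proteins, Mhc (649) for muscle myosin heavy chain and Msp300 (994) for a nesprin. The Mhc peak lay in an intron, 19160 bp from the gene's own start. Within 500 bp of a start the shares were 55.6% for actin-related, 35.3% for assembly and turnover, 28.6% for regulators and 12.0% for sarcomere genes, against 19.0% of all genes and 22.9% of protein-coding genes. Gene length differed between the lists: the median span was 2378 bp for actin-related, 5732 bp for assembly and turnover, 19249 bp for regulators and 10886 bp for sarcomere genes, against 1646 bp for all genes. Each list thus had a longer median span than all genes, and the part of length in the counts was not tested.

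The Act5C peak itself ranked beside the kept peaks of REPTOR, a transcription factor controlled by TOR signalling, and lncRNA:CR46094, which share a call at rank 463, and of mio, which codes for a GATOR2 subunit, at 465. That likeness is of pooled rank alone. In replicates 1 and 3 REPTOR ranked 355 and 609, and mio 883 and 312.

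**Figure D4:**
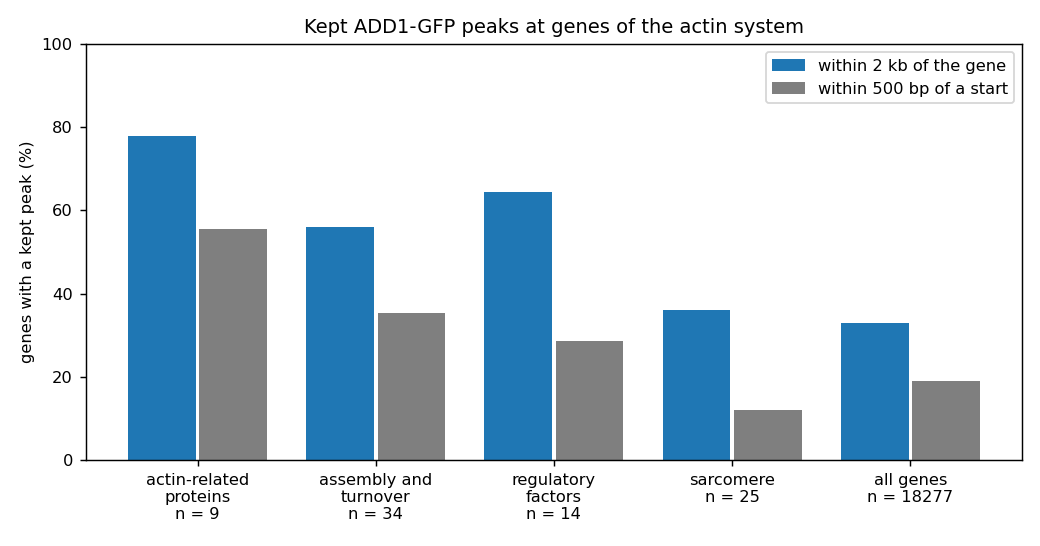
Percent of genes in each list with a kept peak within 2000 bp of the gene and within 500 bp of a start, beside the same for all genes. Actin-related genes stand at 77.8% and 55.6%, sarcomere genes at 36.0% and 12.0%, and all genes at 33.0% and 19.0%.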

How the data were processed

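The 2 ADD1-GFP libraries form 1 group. The file lists that the authors deposited describe dm6 calls of peaks and background for each replicate and for the pooled reads, made against a shared control and thresholded by IDR. The deposited signal of each call is the authors' value, on a scale that varies with the library, and ranks were therefore taken within each list. Aligner and peak caller: not given in the sources used here. Read depth is unknown, so no interval or floor is given. Kept peaks were the 4402 strongest of 30000 pooled calls, which was checked on the lists. Genes came from Ensembl release 115 and sequence from the Release 6 assembly; coordinates are 1-based on dm6. Summits within 2000 bp of a gene were assigned to it. A replicate call matched at 50% of the shorter call, and the strongest match was taken. Motifs were read within 100 bp of summits. The dm3 lists were not used.

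Computation used Python 3.11.15, pandas 2.3.3, numpy 2.4.6 and Biopython 1.88, and the assignment was tested on simulated data. The members and lists were chosen with earlier results of these data known, so no test was run. Named genes are the actin genes, genes sharing their kept or strongest calls, the 4 members of each list with the strongest kept peak, and genes within 5 ranks of the strongest Act5C call. Other genes named as holding or adjoining a call (Src42A, CG4020, CG12236 and the neighbours of list members) were chosen after their values were seen. Alternatives were other distances, the nearest start, the stronger part of the kept peaks, each replicate alone, other matching rules and wider motif windows.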

Additional observations from a re-analysis of the deposited data

How the results depend on the processing

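Of 98 alternative values over 26 results, 74 stayed within their limit and 24 moved. The limit was a factor of 1.5 for counts and, for ranks, 1 SD of the 2 replicates' ranks, so it is wider for a gene whose replicates differ more. At 500 bp the cytoplasmic genes had 7 calls and 2 kept peaks in place of 12 and 4. At 5000 bp they had 19 calls. With each call given to the nearest start they had 6 calls and 1 kept peak, at 1 gene. With only the 2201 strongest pooled calls as kept, 1 cytoplasmic peak at 1 gene and 0 muscle peaks at 0 genes were left, so the muscle result rests on peaks in the weaker part of the kept list. Leaving out 1 replicate meant using the list of the other, with its 4402 strongest calls counted as kept and no IDR step. This gave 1 to 3 muscle peaks at 1 to 2 genes. The larger gene count was without replicate 3 and came from the Act88F call of replicate 1. With 1 replicate left out, the best rank ran from 2858 to 3730 at Act42A and from 7523 to 12176 at Act57B. At Act87E it ran from 2320 to 3283 and at Act5C from 422 to 490. Only Act42A passed its limit, although the rank of Act57B moved further. Requiring 80% overlap left 9 calls matched in both replicates in place of 14, and 2 ranked among the strongest in both in place of 5; taking the match of largest overlap gave 3. Within 500 bp of a start, 12 assembly and turnover, 3 sarcomere and 4 regulator genes had a kept peak. In windows of 200 bp on either side, GAGAG was at 10 calls, GGTATTT at 2, the E-box at 15, the MEF2 site at 5 and the CArG box at 4. In windows of that width 42.1%, 11.8%, 84.7%, 19.4% and 1.98% of all kept peaks held these motifs, in the same order. Among other pooled calls the shares were 41.6%, 8.95%, 84.7%, 15.5% and 2.45%. With so few calls no difference is read into these counts. No paired analysis was possible because the series has 1 group. Read depth is unknown, so a missing call at Act79B or Act88F means only that none was among the 30000 listed.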

Other observations

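Beyond the 2000 bp limit, 9 further pooled calls lay within 5000 bp of an actin gene, and 2 of them were kept, both near Act5C. One (X, 5895952 to 5896375, signal 213) lay 4697 bp from Act5C in an intron, with lncRNA:CR45668 as the gene of the nearest start, 3825 bp away. It ranked 963 in the pool, 932 in replicate 1 and 1261 in replicate 3. The other (X, 5907865 to 5908288, signal 203) lay 2678 bp past the 3′ end of Act5C and 58 bp from the start of CG12236, and ranked 1090 in the pool, 914 in replicate 1 and 1606 in replicate 3. Both ranked above every actin call other than the −646 peak of Act5C, which ranked 464.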
